A study of Mus musculus with 15 samples.

Results

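Estradiol given 2 h before collection was compared with saline vehicle in the mouse uterus, on 6 of the 15 one-colour Agilent arrays of a larger oestrogen study. The members were the 3 arrays labelled E2 2 h and the 3 labelled vehicle. All were from ovariectomized CD-1 mice, an outbred strain, which lack ovarian hormones. The vehicle group had received 100 µl of saline, and the treated group 250 ng of E2, read here by its usual meaning as estradiol, in the same volume. The sources used here give neither the animals' age nor when vehicle uteri were collected, and do not say whether each array stood for its own animal. The p-values therefore set the difference between groups only against the spread of samples within groups, which may be technical. That spread was pooled over all 15 arrays, not only these 6. Of 41121 probes with a value on every array, 30491 were tested, having a signal well above background on every array of either group. They represented 20066 genes, of which 15619 had a symbol.

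Estradiol acts in the uterus through oestrogen receptor alpha, a nuclear receptor that binds DNA at oestrogen response elements or is tethered to other factors such as AP-1. In the rodent uterus the early phase of the response brings transcription of immediate early genes, vessel leakage and water uptake, and the later phase brings growth and division of the epithelium. Immediate early genes are switched on without new protein synthesis and many encode transcription factors or signalling inhibitors. The first hours after the hormone thus precede most cell division.

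Each array carried RNA labelled from 500 ng of total RNA. The 75th percentile of the signal lay between 1372 and 1800 on the vehicle arrays and between 1522 and 1727 on the E2 arrays, and 71.6% to 79.99% of probes were well above background. A level is given below as the log2 signal minus the 75th percentile of its own array, so 0 is that percentile and 1 unit is a 2-fold difference. Arrays of the same group correlated at r = 0.986 to 0.992 across probes and arrays of different groups at r = 0.946 to 0.958. Probes are not independent replicates in these correlations. Slide 1 held the 3 vehicle arrays and no others, whereas the E2 arrays lay on slides 2 and 3, so slide and vehicle cannot be told apart. With slide as a random block, limma called 6476 genes, and with scan day 1 alone, which held all 3 vehicle and 2 E2 arrays, it called 8300 genes.

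Within 2 h, 7803 genes were called, which is 38.9% of the 20066 tested (limma, Benjamini-Hochberg adjusted p under 0.05). There were 3143 genes called higher with E2 (15.7%) and 4660 called lower (23.2%). Every count of list members below is to be read against these shares. A change is given below as E2 minus vehicle on the log2 scale, ± its SE from limma where one is shown, with 3 arrays in each group. That SE rests on the spread within all 5 groups of the 15 arrays, not on these 6 arrays alone. The balance of directions depends on the scale of the arrays. The median change over all genes was -0.14 with the 75th percentile as the scale, -0.08 after quantile normalization and 0.04 with the array median as the scale. Over probes, 5055 were higher and 6599 lower by the main scale, against 6878 higher and 4437 lower with the array median. List counts given below with the array median as the scale are to be read beside this general shift. Among larger changes the balance turned with their size. At 2-fold or more there were 1283 higher genes (6.39% of those tested) and 1995 lower (9.94%), at 8-fold or more 169 higher and 104 lower, and at 32-fold or more 33 higher and 4 lower. Of the 104 genes that fell by 8-fold or more, 70 had no gene symbol, compared with 17 of the 169 that rose.

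**Figure D1:**
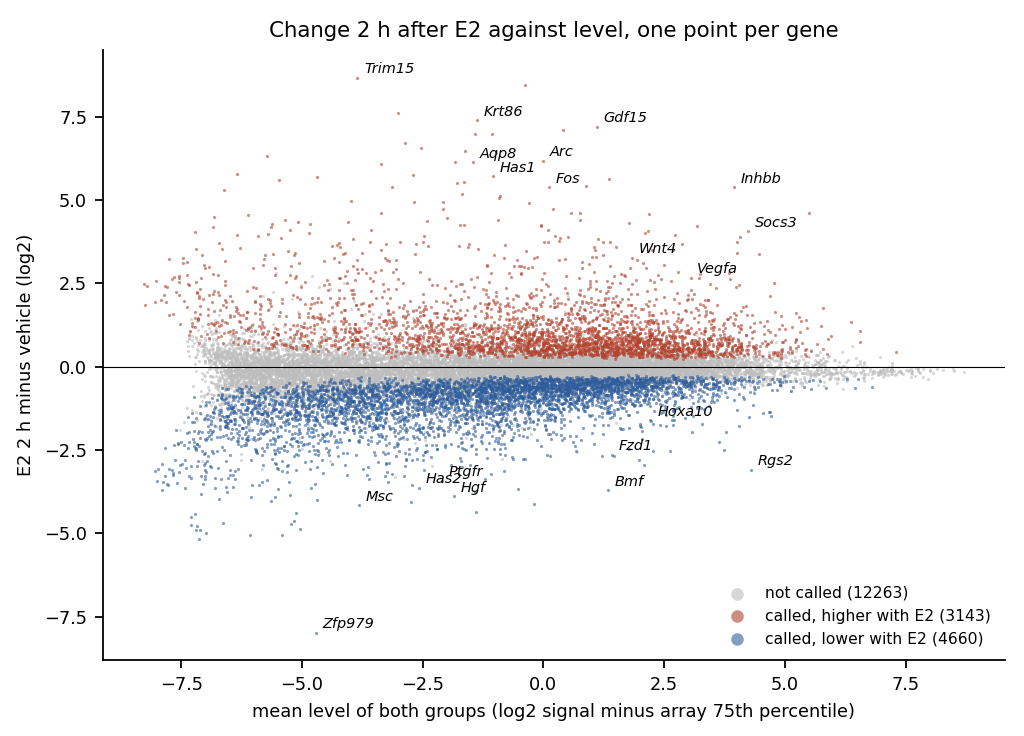
Change with E2 at 2 h (log2, vertical) against the mean level of both groups (log2 signal minus the array 75th percentile, horizontal), with each of the 20066 genes as a point. Red points are the 3143 genes called higher, blue points the 4660 called lower and grey points those not called, and the largest rises extend farther from 0 than the falls apart from Zfp979.

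The 15 largest rises among named genes were led by Trim15, a member of the tripartite motif family of ubiquitin ligases, which was at least 208-fold higher and on no vehicle array well above background. They also held 5 kallikrein genes of the Klk1 cluster, Klk1b24, Klk1b5, Klk1, Klk1b4 and Klk1b3. These encode serine proteases with closely similar sequences, so their probes may measure each other's transcripts and their values are uncertain. The hair keratins Krt86 and Krt87, which are likewise similar in sequence, rose by 7.39 and 6.99. Arc, an immediate early gene best known from neurons, stood at -3.20, -3.09 and -3.02 on the vehicle arrays and at 3.13, 3.20 and 2.89 on the E2 arrays. The groups were more than 5 units apart, whereas groups that did not overlap at all were found for 55.9% of the genes tested. The change was 6.18 ± 0.31, with an adjusted p of 9.22e-08. Rem2, a small GTPase that limits calcium channels, rose by 6.10 ± 0.25 from a level that was well above background on 2 of 3 vehicle arrays. Csrnp3, a nuclear protein, rose by 6.14 ± 0.26, and over its 3 probes the rise ran from 2.71 to 6.14. Otop1, a proton channel, was not well above background on any vehicle array, so its rise is given as at least 13.7-fold. Egr4, a zinc finger factor of the early growth response family, rose by 5.74 ± 0.44.

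The 15 largest falls included Msc, a helix-loop-helix repressor also called musculin, whose levels were -1.84, -1.62 and -1.77 in vehicle and -5.33, -6.42 and -5.93 with E2. Every E2 array was more than 3 units below every vehicle array, and its change was -4.15 ± 0.41 with an adjusted p of 1.11e-05. Others with a known function were Npy2r, a receptor for neuropeptide Y, at -3.92, Hcar1, the lactate receptor, at -3.83, Ndp, the Frizzled ligand norrin, at -3.67, and Fgf20, a fibroblast growth factor, at -3.66. On the E2 arrays Fgf20 was well above background on 1 of 3, and Npy2r and Hcar1 on 2 of 3. Zfp979, a zinc finger gene, had the widest mean difference, but its 95% interval was broad, with an SE of 1.95 around -7.98 (adjusted p = 0.00617). Its SD was 0.33 in vehicle and 0.85 with E2, while the SE also draws on the arrays of the other groups. Zfp979 was not well above background on any E2 array, which makes it at least 109-fold lower. Slc38a11, a member of an amino acid transporter family, was at least 9.28-fold lower with E2. Conversely, Sele, the endothelial adhesion molecule E-selectin, was well above background on the E2 arrays but on none of the vehicle arrays and was at least 9.2-fold higher. In all, 51 genes with a symbol were above background on 3 E2 arrays and no vehicle array, and 24 showed the reverse. With genes that lack a symbol included, the counts were 91 and 93.

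Transcription factors of the immediate early class rose as groups. Of 18 tested genes for AP-1 and related leucine zipper factors, 15 rose and 0 fell, with a median change of 2.54 compared with -0.14 over all genes. Fos, an AP-1 subunit, stood at -2.80, -1.69 and -3.23 in vehicle and 2.69, 2.96 and 2.78 with E2. The lowest E2 array was more than 4 units above the highest vehicle array, and the change was 5.38 ± 0.41 (adjusted p = 1.6e-06). Its probe lies at chr12:83478431-83478490 of build mm7. Fosl1, the related subunit Fra-1, rose by 4.98 ± 0.34, from a level that was well above background on 2 of 3 vehicle arrays. Fosb, Atf3 and Cebpb, the last a basic leucine zipper factor needed for decidualization, rose by 3.74, 3.73 and 3.39, and the Jun family rose less, with Junb at 2.51, Jund at 1.75 and Jun at 1.07. Of the EGR, NR4A and other immediate early genes, 17 of 18 rose and the median change was 2.92. Nr4a1, an orphan nuclear receptor, rose by 3.90 ± 0.22, Plk2, a polo-like kinase, by 3.59 ± 0.26, and Ccn1, a secreted matrix protein, by 4.59 ± 0.28. Its relative Ccn2 was not called, at 0.22.

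Of the 51 members of all gene lists that rose by 4-fold or more and have a promoter in RefSeq's table (GRCm38.p6), 6 hold the palindrome TGACGTCA, the cyclic AMP response element, within the 250 bases before a transcription start. All 6 are shown, 5' to 3', because the share of promoters with this motif followed the order of the change over all genes, as given next. It was picked for that order from several motifs searched. The 6 of 51 counts genes with the motif at any start, unlike the shares given next, which count promoters. The motif stands in capitals. Where a gene has several starts, the start that holds the motif is shown.
Has1 (chr17:17855189-17855438, minus strand): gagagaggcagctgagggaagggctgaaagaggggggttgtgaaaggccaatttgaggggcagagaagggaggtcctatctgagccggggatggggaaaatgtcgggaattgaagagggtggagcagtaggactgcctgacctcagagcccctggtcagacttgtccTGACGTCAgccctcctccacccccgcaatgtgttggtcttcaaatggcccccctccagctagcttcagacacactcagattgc
Errfi1 (chr4:150854820-150855069, plus strand): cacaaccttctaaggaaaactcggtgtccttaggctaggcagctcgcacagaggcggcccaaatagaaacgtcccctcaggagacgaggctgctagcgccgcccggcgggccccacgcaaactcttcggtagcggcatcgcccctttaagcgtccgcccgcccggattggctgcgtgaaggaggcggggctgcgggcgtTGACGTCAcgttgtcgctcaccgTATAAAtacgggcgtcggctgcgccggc
Plk2 (chr13:110394794-110395043, plus strand): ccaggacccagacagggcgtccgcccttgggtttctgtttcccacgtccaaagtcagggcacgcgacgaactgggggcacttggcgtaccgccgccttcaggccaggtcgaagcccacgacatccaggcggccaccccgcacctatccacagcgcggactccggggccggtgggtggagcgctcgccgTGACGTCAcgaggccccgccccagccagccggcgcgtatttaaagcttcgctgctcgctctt
Dusp8 (chr7:142095285-142095534, minus strand): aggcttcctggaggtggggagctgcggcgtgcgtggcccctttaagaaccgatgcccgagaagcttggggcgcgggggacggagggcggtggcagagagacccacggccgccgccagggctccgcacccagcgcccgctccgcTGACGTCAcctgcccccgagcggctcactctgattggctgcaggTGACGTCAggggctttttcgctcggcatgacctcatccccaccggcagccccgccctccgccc
Maff (chr15:79347270-79347519, plus strand): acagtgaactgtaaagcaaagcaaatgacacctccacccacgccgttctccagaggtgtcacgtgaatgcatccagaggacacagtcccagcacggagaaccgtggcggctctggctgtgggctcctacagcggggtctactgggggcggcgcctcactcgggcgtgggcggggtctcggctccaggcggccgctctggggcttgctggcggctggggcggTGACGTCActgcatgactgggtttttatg
Dusp1 (chr17:26508473-26508722, minus strand): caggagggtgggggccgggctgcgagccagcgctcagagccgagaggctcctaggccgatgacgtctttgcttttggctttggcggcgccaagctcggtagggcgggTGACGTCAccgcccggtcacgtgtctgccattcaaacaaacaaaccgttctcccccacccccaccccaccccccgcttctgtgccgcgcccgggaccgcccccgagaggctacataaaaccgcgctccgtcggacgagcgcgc
The motif lies 83 bases before the start in Has1, 62 in Plk2 and 29 in Maff, counted to its first base. Dusp8 holds it at 107 and again at 63 bases before the start. Errfi1 also carries TATAAA, in capitals, 28 bases before the start. These 6 genes rose by 5.72, 3.75, 3.59, 3.46, 3.03 and 2.84 in the order shown.

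Across all genes with a RefSeq promoter, the share holding TGACGTCA followed the order of the change. It was 4.93% of 345 promoters of genes that rose by 4-fold or more, 3.63% of those that rose less, 2.26% of those not called, 1.54% of those that fell by under 4-fold and 0% of 161 promoters of genes that fell by 4-fold or more. The share was 2.35% over all 15644 promoters of tested genes. The motif contains CG, and base composition differed between the same classes. Their median GC content was 61.2%, 62.0%, 58.4%, 58.0% and 55.6%, and the GC box GGGCGG was in 57.1%, 64.0%, 50.6%, 52.4% and 45.3% of their promoters. The part of base composition in the shares with TGACGTCA was not tested. A single arm of the oestrogen response element, GGTCA, was found in 44.6% of the first class and in 32.5% to 35.7% of the others, against 34.0% overall. It is short and overlaps the full palindromic element, made of this arm and its inverted copy, of which no match was found in any class called. TGANTCA, the AP-1 motif, was at 5.22% of the genes with the largest rises and at 6.21% of those with the largest falls, against 4.95% overall. TATAAA was at 7.54% and 4.97%, against 4.94%. These motifs were searched on both strands except TATAAA, which was searched on the gene's strand. A match is a description of these letters and not of binding, and a motif missing from this window says nothing about the factor.

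**Figure D2:**
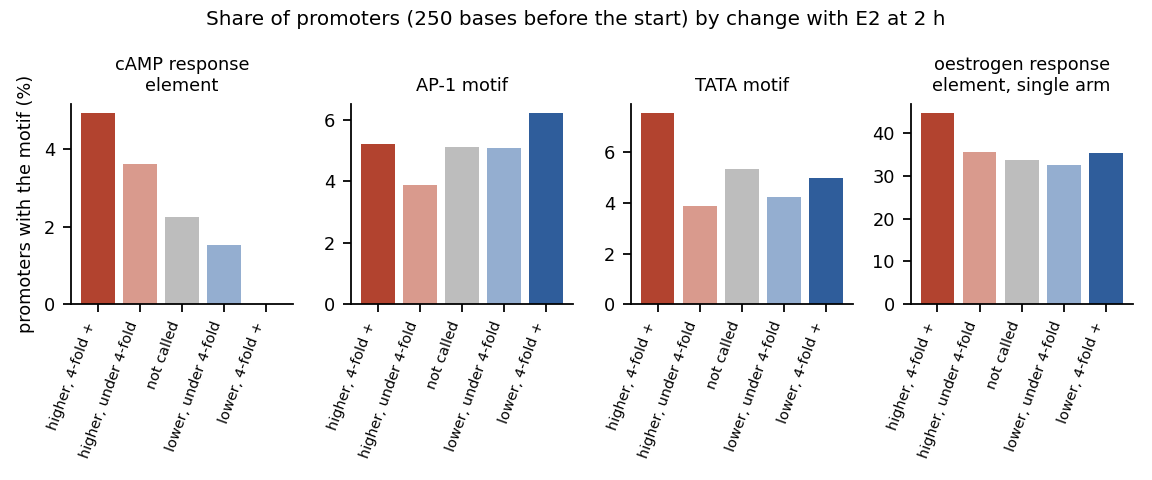
Percent of RefSeq promoters (250 bases before the start) that hold each motif, for genes in 5 classes of change with E2 at 2 h. The cyclic AMP response element falls from 4.93% to 0% from the class with the largest rises to that with the largest falls, whereas the AP-1 motif shows no such order. Median GC content also differs between these classes, from 55.6% to 62.0%.

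Many inhibitors of growth factor signalling rose in the same samples. In the list of MAP kinase phosphatases and Sprouty proteins, which restrain MAP kinase signalling, 10 of 17 tested members rose and 2 fell, with a median change of 0.73. Errfi1, an inhibitor of the EGF receptor, measured 2.20, 2.24 and 1.98 in vehicle and 5.89, 5.89 and 5.89 with E2, with no overlap of the groups. Its change was 3.75 ± 0.19 (adjusted p = 9.22e-08). Dusp8, a phosphatase of the stress kinases, rose by 3.46 ± 0.23, and both of its probes were called. The Sprouty genes did not move as one. Spry4 rose from -5.16, -4.88 and -5.22 to -2.03, -1.06 and -1.14, a change of 3.67 ± 0.37, whereas Spry1 fell from 1.96, 1.95 and 1.82 to 0.21, 0.17 and 0.14, a change of -1.74 ± 0.15, and both pairs of groups were separate. Spred1, of a related family, fell by 0.65.

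Growth arrest genes were higher in 7 of 14 members tested and lower in 2, with a median of 0.85. Gadd45g, a stress and arrest protein, went from 2.96, 3.09 and 3.51 to 7.80, 7.74 and 7.85. Every E2 array was above every vehicle array, and the change was 4.61 ± 0.48 (adjusted p = 1.58e-05). Cdkn1a, the cyclin-dependent kinase inhibitor p21, rose by 3.90 ± 0.34, and Tob1, an antiproliferative protein, by 2.98 ± 0.19. Btg1, of the same family as Tob1, fell by 1.16 ± 0.13. Among G1 cyclins and kinases, 12 of 16 were not called, and Ccnd1, cyclin D1, was at -0.12 (adjusted p = 0.607). The Myc network, whose members pair with Max or with Mlx, had 5 higher and 4 lower of 13, and the higher numbered 3 without E2 replicate 3. Mlxipl, the glucose-responsive factor ChREBP, rose by 1.81 ± 0.24, while the antagonist Mxd4 fell by 1.24 ± 0.20. The call for Myc itself, at 0.95, was lost without vehicle replicate 2 or without E2 replicate 3.

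Among steroid receptors and their coregulators, 8 of 18 rose and 2 fell, or 1 whichever of the 6 arrays was left out. Nrip1, a corepressor known as RIP140, rose by 2.65 ± 0.20, with all 3 of its probes called. The progesterone receptor gene Pgr rose by 1.99 ± 0.33, and its second probe rose more, by 3.93. Gper1, a membrane receptor for oestrogen, stood at 0.24, -0.11 and 0.33 in vehicle and at -1.63, -2.30 and -2.03 with E2, a change of -2.14 ± 0.29 (adjusted p = 0.000112) with no overlap. Esr1, the oestrogen receptor alpha gene, was at -0.13 (adjusted p = 0.39) and was not called, nor were Ltf and C3, both secreted epithelial proteins, at -0.92 and -0.38.

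**Figure D3:**
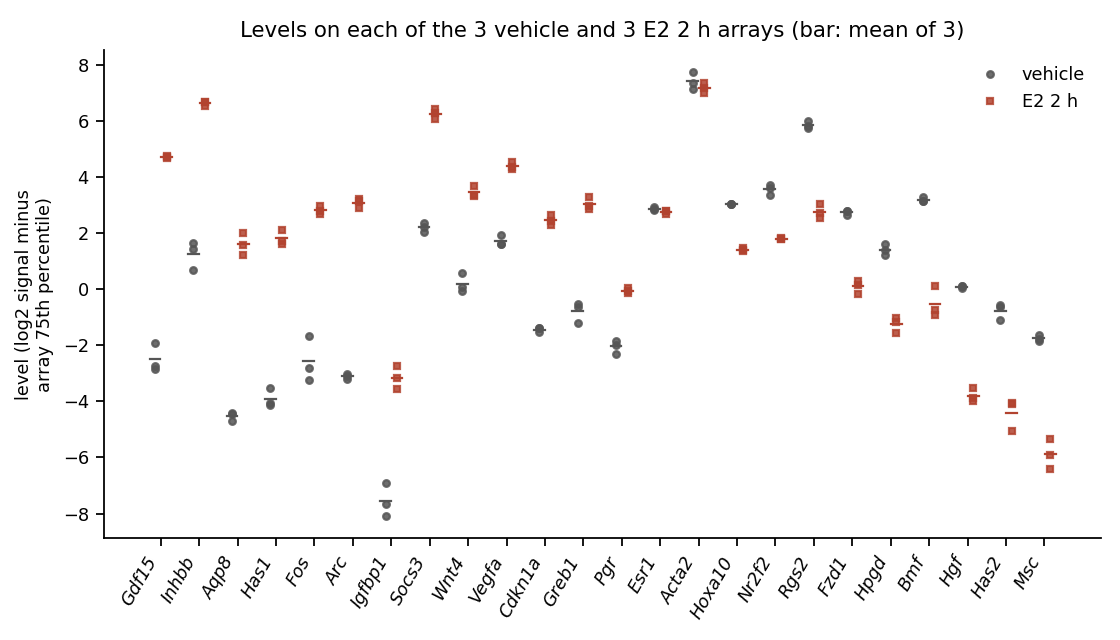
Level on each array (log2 signal minus the array 75th percentile) for 24 genes, with grey circles for the 3 vehicle arrays, red squares for the 3 E2 arrays and a bar at each mean. The groups overlap for Acta2, lie close together for Esr1 and are apart for the 22 others.

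Signals between cells changed in both directions within several families. In the activin and BMP list, 7 of 19 rose (36.8%) and 4 fell (21.1%), beside 15.7% and 23.2% of all genes. Inhbb, the beta B subunit of activins and inhibins, rose from 0.69, 1.43 and 1.63 to 6.65, 6.54 and 6.69. The groups were separate, and its change was 5.38 ± 0.80, with both probes called. Inha, the subunit that turns an activin into an inhibin, fell by 1.96 ± 0.23, and Bmp2, a bone morphogenetic protein, fell by 1.60 ± 0.24. Downstream, Skil and Smad7, which restrain TGF-beta signalling, rose by 1.80 ± 0.21 and 1.29 ± 0.20. Id1 rose by 1.18 while Id2 fell by 1.60, and the second probe of each gene moved the same way. In that list 8 of 13 members rose, or 5 without E2 replicate 2.

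Of 22 genes for LIF, interleukin-6 and SOCS proteins, 10 rose and 2 fell, with a median of 0.38. The falls numbered 1 without vehicle replicate 1 or E2 replicate 2, and 0 with the array median as the scale. Socs3, which blocks cytokine signalling through STAT3, measured 2.03, 2.37 and 2.20 in vehicle and 6.06, 6.44 and 6.29 with E2, and the groups were well apart (4.06 ± 0.13, adjusted p = 4.46e-09). Socs1 rose by 3.95 ± 0.16, and Il11, the cytokine needed for decidualization, by 3.67 ± 0.32. Among chemokines, Cxcl1, a neutrophil attractant, and Ccl2 and Ccl7, monocyte attractants, rose by 2.06, 1.91 and 1.96. Cxcl10 and Cxcl11, ligands of Cxcr3 that interferon induces, were lower at -2.93 ± 0.50 and -3.33 ± 0.88, and Cxcl11 was well above background on 1 of 3 E2 arrays. Of 27 chemokines 18 were not called, and the share called was 33.3%, near the 38.9% of all genes. There were 4 falls, or 8 without E2 replicate 1 and 2 with the array median as the scale. Of 23 interferon-response genes 9 fell and 0 rose, or 5 without E2 replicate 3 and 4 with the array median as the scale. The largest fall was that of Rsad2, viperin, at -2.63 ± 0.29.

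The growth factor lists were called at shares near the 38.9% of all genes. These were 36.4% for EGF and ErbB, 46.2% for insulin-like growth factors and 46.7% for HGF and FGF. In the list of EGF ligands and ErbB receptors 2 of 11 rose and 2 fell, or 4 fell in a fit of these 6 arrays alone. In the insulin-like growth factor list 2 of 13 rose and 4 fell, and of 15 HGF and FGF ligands and receptors 3 rose and 4 fell. Igfbp1, an insulin-like growth factor binding protein and decidual product, measured -8.08, -6.92 and -7.67 in vehicle, where only 1 array was well above background, and -3.16, -2.74 and -3.57 with E2 (4.40 ± 0.47). Irs1, the insulin receptor substrate, was at -0.83 ± 0.13, but its other probe was at 0.06 and was not called. The EGF family ligands Hbegf, 2.95 ± 0.14, and Nrg1, 2.04 ± 0.34, rose, and 4 of the 5 Nrg1 probes were called. Betacellulin, Btc, of the same family, fell by 1.19 ± 0.24. Fgf7 and Fgf10, stromal factors that act on epithelium, fell, with changes of -1.46 and -1.05.

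In the Wnt list, 5 of 32 rose (15.6%) and 10 fell (31.2%), beside 15.7% and 23.2% of all genes. The falls numbered 6 with the array median as the scale. Wnt4, a ligand needed for decidualization, rose by 3.27 ± 0.40, and Axin2, a feedback target of the pathway, by 1.28 ± 0.19. The R-spondin Rspo3, which strengthens Wnt signalling, stood at -1.18, -0.91 and -1.42 in vehicle and -3.64, -3.81 and -3.77 with E2, and it fell on both probes (-2.57 ± 0.21, adjusted p = 2.37e-06). The receptor gene Fzd7 fell by 2.05 ± 0.20. In the Notch list, 7 of 16 rose and 6 fell. The target gene Hey1 rose by 2.02 ± 0.10, and the ligand Jag1 fell by 1.23 ± 0.20. Ptch1, a receptor and feedback target of Hedgehog, was lower at -2.45 ± 0.29, and Nr2f2, the stromal factor COUP-TFII, at -1.75 ± 0.15, with a second probe at -4.14. Of 20 homeobox genes 13 fell and 0 rose, with a median of -0.73. Hoxa9 fell from 0.96, 1.25 and 1.12 to -0.73, -0.96 and -1.01, a change of -2.01 ± 0.19, and Hoxa10, needed for implantation, fell by 1.62 ± 0.15.

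Genes tied to vessels and tissue water had 11 rises and 5 falls among 29 vascular members. Pgf, placental growth factor, went from -2.16, -2.36 and -1.99 to 2.59, 2.83 and 2.28, with all E2 arrays above all vehicle arrays (4.74 ± 0.24, adjusted p = 9.22e-08). Vegfa, the vascular endothelial growth factor, rose on all 3 of its probes (2.67 ± 0.16 on the probe that represents it), whereas its relatives Vegfc and Vegfd fell, with changes of -1.02 and -0.65. Ramp3, which pairs with the receptor Calcrl to bind adrenomedullin, rose by 4.21 ± 0.66, its ligand Adm by 1.63, and Calcrl fell by 0.81. The ligand Apln rose by 1.88 and its receptor Aplnr fell by 1.70, with its other probe at -0.43 and not called.

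Among 7 aquaporins tested, 4 rose and 2 fell, or 1 with the array median as the scale. Aqp8 was at -4.72, -4.43 and -4.45 in vehicle and 1.21, 1.59 and 2.003 with E2. The groups were more than 5 units apart (6.13 ± 0.87, adjusted p = 0.000152), and the probe lies at chr7:119570588-119570647 of mm7. Aqp5, a water channel of secretory epithelia, rose by 3.68 ± 0.47, and Aqp11, an intracellular channel, fell by 1.73 ± 0.26. The 3 hyaluronan synthases split. Has1 rose from -4.06, -4.13 and -3.54 to 1.73, 1.61 and 2.10, a change of 5.72 ± 0.30, whereas Has2, the principal synthase of most connective tissue, fell from -0.64, -0.57 and -1.10 to -4.08, -5.05 and -4.07, a change of -3.63 ± 0.47, and both of its probes were called. Has3 fell by 2.54 ± 0.27. Hyal2, a hyaluronidase, rose by 1.19. Of 13 genes in this list 3 rose and 4 fell.

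Prostaglandin genes gave 5 rises and 7 falls of 20, and the rises numbered 2 or 3 without vehicle replicate 1, E2 replicate 2 or E2 replicate 3. Ptges, the synthase of prostaglandin E2, measured -1.77, -1.21 and -1.72 in vehicle and 1.94, 2.60 and 2.05 with E2 (3.76 ± 0.21, adjusted p = 1.46e-07). Receptor genes fell, with changes of -3.42 ± 0.53 for Ptgfr, the prostaglandin F2 alpha receptor, -2.49 ± 0.56 for Ptger2 and -1.46 for Ptger4. Hpgd, the dehydrogenase that inactivates prostaglandins, fell by 2.65 ± 0.19, and Ptgs2, cyclooxygenase 2, was not called at -0.11. Of the metalloproteinases and their partners 10 of 27 rose and 7 fell, or 4 with the array median as the scale. Adamts4 and Adamts1, proteases that cleave proteoglycans, rose by 4.62 ± 0.32 and 2.64 ± 0.20, and Mmp9, a gelatinase, fell by 1.19 ± 0.20. Cldn1, a tight junction claudin, fell by 2.47 ± 0.36, and Gja1, the gap junction protein connexin 43, rose by 1.42 ± 0.31. Of 19 retinoid genes 5 rose and 2 fell, and 36.8% were called, against 38.9% of all genes. Rara, a retinoic acid receptor, rose by 1.84, and Aldh1a2, which makes retinoic acid, by 1.67. Aldh1a1, of the same enzyme family, fell by 0.62 and the receptor Rxra by 0.51, and both calls were lost with the array median as the scale.

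Genes for ribosome assembly and protein folding rose as groups. Of 38 ribosome biogenesis genes 28 rose and 0 fell, with a median of 0.90, and of 19 heat shock chaperones 14 rose and 0 fell, with a median of 0.67. Hsph1, a nucleotide exchange factor for the 70 kDa chaperones, rose by 1.64 ± 0.21. Among polyamine genes, Srm, spermidine synthase, rose by 1.62 ± 0.32 and Odc1, ornithine decarboxylase, by 0.96 ± 0.17. Slc7a5, the transporter of large neutral amino acids, measured -0.78, -0.78 and -0.74 in vehicle and 2.71, 2.16 and 2.26 with E2 (3.15 ± 0.24, adjusted p = 1.76e-06). Of the 24 amino acid genes 8 rose and 3 fell. Of 19 cytosolic tRNA synthetases 3 rose, which is 15.8% beside the 15.7% of all genes called higher. That count was 8 without E2 replicate 1 and 8 with the array median as the scale.

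Genes that restrain growth or respond to nutrient shortage fell in 9 of 17 and rose in 5, with a median of -0.58. Pik3ip1, an inhibitor of PI3 kinase, stood at 2.87, 2.74 and 2.77 in vehicle and 0.56, -0.25 and 0.03 with E2, and its change was -2.68 ± 0.20, with its second probe at -5.51. Sesn1, a sestrin that restrains mTORC1, fell on all 3 probes (-2.52 ± 0.24), and Txnip, the thioredoxin inhibitor that limits glucose uptake, fell by 1.97 ± 0.23. Pdk4, a kinase that shuts off pyruvate dehydrogenase, rose by 2.33 ± 0.17. Of 16 tested BCL2 family genes 4 rose, 4 fell and 8 were not called. The rises numbered 2 without vehicle replicate 3 or E2 replicate 3, and 7 with the array median as the scale or with array weights. Bmf, Bad and Bbc3, which promote cell death, fell, with changes of -3.70, -1.35 and -1.21. Over the 3 Bmf probes the change ran from -3.70 to -1.08. Bid, which also promotes it, was higher by 0.92, a call lost without vehicle replicate 2, vehicle replicate 3 or E2 replicate 3 and with scan day as a block. The survival genes Bcl2l1 and Mcl1 rose by 0.85 and 0.68. The clock list had 6 rises and 7 falls of 19. Per2 rose by 1.79 ± 0.22 and Bhlhe40 by 2.27 ± 0.30, both repressors of the clock, and Nr1d1, the repressor Rev-erb alpha, fell by 2.17 ± 0.23. The hour at which vehicle uteri were taken is not stated, and the part of the time of day in these values was not tested. Rgs2, a G protein signalling inhibitor of smooth muscle, measured 5.75, 5.81 and 5.995 and 3.04, 2.52 and 2.71 (-3.09 ± 0.23), and Sik1, a salt-inducible kinase, rose by 3.34 ± 0.35.

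Of 316 tested zinc finger genes named Zfp, 142 fell, which is 44.9% beside the 23.2% of all genes called lower, and 30 rose. The list's median change was -0.39. With the array median as the scale, 47 rose. On that scale more probes of all genes were higher, 6878 against 5055, and fewer lower, 4437 against 6599. The number of Zfp falls on that scale is not given here. Zfp503 fell by 2.54, and the changes of Zfp94 and Zfp750 were -2.10 and -3.03. Zfp750 was well above background on 1 of 3 E2 arrays. The largest rise in the list was that of Zfp469, at 4.91 ± 0.34 (adjusted p = 8.59e-07). Zfp36, a zinc finger protein that binds short-lived RNAs and speeds their decay, rose by 2.32.

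**Figure D4:**
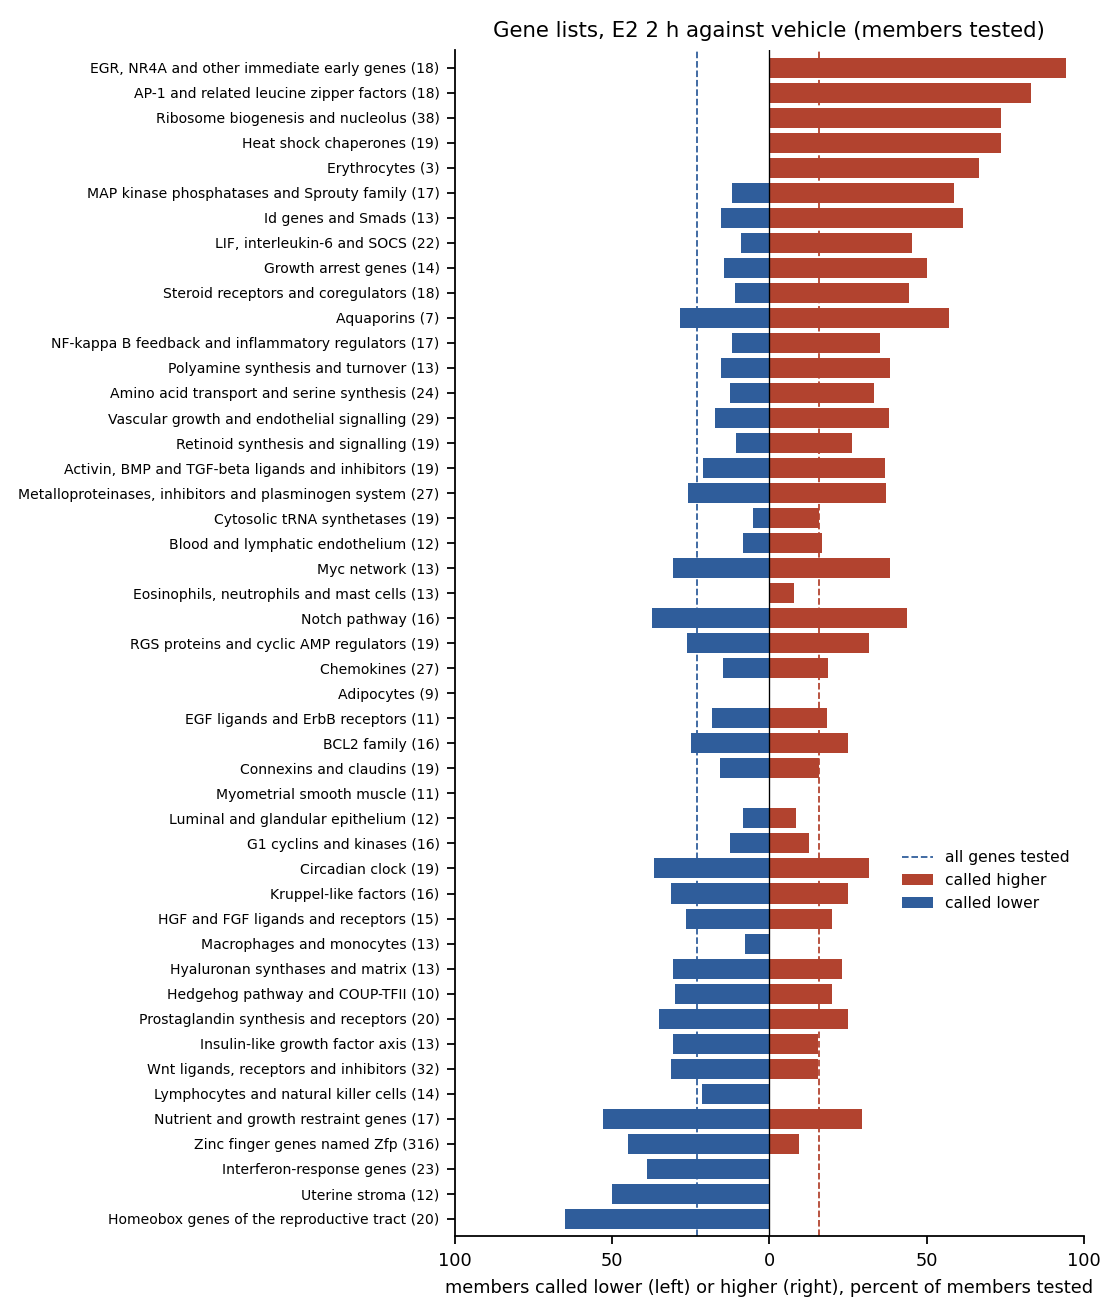
Percent of tested members called higher (red, to the right) or lower (blue, to the left) in each gene list at 2 h, with the number tested in parentheses and dashed lines at the shares over all genes, 15.7% higher and 23.2% lower. Immediate early genes, ribosome biogenesis and heat shock genes lie at the top, and homeobox, stromal and interferon genes at the bottom.

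Markers of cell types were examined beside these changes. In whole tissue, fewer cells of a type and less RNA per cell cannot be told apart. None of 11 myometrial smooth muscle markers was called, Acta2, the smooth muscle actin, being at -0.24, although 2 fell after quantile normalization and 1 without vehicle replicate 1, E2 replicate 1 or E2 replicate 2. Their summed level ranged from 437 to 655 in vehicle and from 425 to 544 with E2. Of 12 epithelial markers 1 rose and 1 fell, with a summed level of 144 to 193 in vehicle and 131 to 146 with E2. The rise was lost without vehicle replicate 2, E2 replicate 2 or E2 replicate 3, and the fall without vehicle replicate 3 or E2 replicate 2. Of 12 endothelial markers 2 rose and 1 fell, so 25% were called, against 38.9% of all genes. Their summed level was 44.7 to 50 in vehicle and 39.6 to 42.4 with E2. Macrophage markers had 1 fall of 13, which was lost when any of 4 arrays was left out, and became 3 without E2 replicate 1, and their summed level was 118 to 173 in vehicle and 67 to 162 with E2. Of 14 lymphocyte and natural killer cell markers 3 fell, or 0 without any of vehicle replicates 2 and 3 and E2 replicates 2 and 3, and their summed level was 2.36 to 4.25 in vehicle and 1.67 to 2.52 with E2. The part of lymphocytes in the interferon and chemokine results was not tested. In the stromal list 6 of 12 fell and 0 rose, or 1 rose without vehicle replicate 3. The 4 largest falls were those of the transcription factors Nr2f2, Hoxa10, Hand2 (-1.60) and Hoxa11 (-1.47), while the collagen genes Col1a1, Col1a2 and Col3a1 were not called at -0.51, -0.31 and -0.35. Without E2 replicate 1 these 3 were called lower, at -0.89, -0.61 and -0.71. The summed level of that list was 430 to 486 in vehicle and 297 to 414 with E2. Hoxa10, Hoxa11 and Nr2f2 also stand in the homeobox and Hedgehog lists, and the part of stromal cells in those results was not tested. Summed levels are linear signals relative to the array's 75th percentile. Of 3 erythrocyte markers 2 rose, among them alpha globin Hba-a1 (1.34), and their summed level was 11.6 to 19.2 in vehicle and 34 to 41.5 with E2. The summed levels of the groups did not overlap for erythrocytes, endothelium and stroma. Groups that did not overlap were found for 55.9% of the genes tested. The part of blood in the vascular results was not tested. Adipocyte markers varied widely within groups, from 16.3 to 203 in vehicle and from 31.5 to 145 with E2, and none of 9 was called.

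Probes of the same gene can measure different transcripts. Among 6977 named genes with at least 2 tested probes, 3840 had a called probe. In 2045 of these at least 2 probes were called, all in the same direction. In 2204, which include some of the former, the calls were in the same direction but at least 1 tested probe was not called. In 85 the calls were opposite. That count was 75 with replicate number as a block, 54 with slide as a random block and 27 at an adjusted p under 0.01, and without 1 array it was 42 (E2 replicate 2), 45 (E2 replicate 3), 53, 54 and 55 (vehicle replicates 2, 1 and 3) and 72 (E2 replicate 1). Rgs3, a G protein signalling inhibitor on chromosome 4, had 3 probes between 40.65 and 42.38 kb from its first probe that rose by 1.34 to 1.37, whereas that first probe was at -1.50 and was called lower. Hip1, an endocytic adaptor, rose at its first probe (1.43) and fell at the probe 25.66 kb further along (-2.01). Cped1 fell by 2.98 at its first probe, which was well above background on 1 of 3 E2 arrays, and rose by 0.95 at its last, 170.15 kb away. Sox11, a transcription factor of neural and other progenitors, fell at its first probe (-2.24) and rose at 3 others, which were well above background on 0, 1 and 2 vehicle arrays. Zkscan8 was at least 2.7-fold higher at its first probe, which was well above background on no vehicle array, and fell at its last (-0.76). Distances are along the mm7 probe positions in the gene's direction, and no mm7 annotation was used, so exons and untranslated regions are not given. Angpt4 also had opposite probes, but 1 of them lies on an unplaced sequence.

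**Figure D5:**
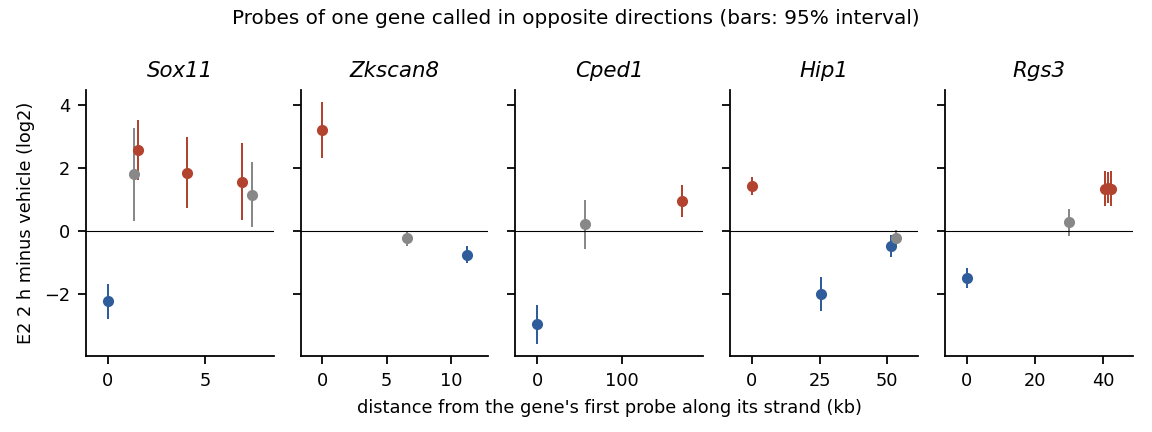
Change with E2 at 2 h (log2, with 95% intervals) for each tested probe of 5 genes, against its distance in kb from the gene's first probe along its strand. Red and blue mark probes called higher and lower, grey those not called, and the first probe of Rgs3 is at -1.50 while the 3 probes at the far end are near 1.34.

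The state at 2 h was set beside that at 24 h in the 3 arrays taken 24 h after the same dose. Of the 18 genes followed individually, 14 were called between the times, beside 52.4% of all genes. Fos was at a mean of -3.01 at 24 h, compared with -2.57 ± 0.80 (SD, n = 3) in vehicle and 2.81 ± 0.14 at 2 h. Wnt4 was at -0.56 at 24 h, compared with 0.20 ± 0.34 in vehicle and 3.46 ± 0.20 at 2 h. Hgf, the growth factor of the Met receptor, was at -0.64 at 24 h, compared with 0.09 ± 0.04 in vehicle and -3.80 ± 0.25 at 2 h. Over the 4 Hgf probes the change at 2 h ran from -3.89 to -0.76.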

How the data were processed

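Uterine RNA for 3 vehicle and 3 E2 2 h arrays was labelled with Cy3 and hybridised to one-colour Agilent mouse arrays. The values used are a linear intensity, deposited as the background-subtracted processed signal. Per the file headers it came from Feature Extraction 9.5.3.1, which the submitters' processing notes give as 9.5, and probe positions are those of build mm7. Each array had 45018 spots, and 43379 non-control spots stood for 41174 probes, 53 of which lacked a value on some array and were dropped. From each log2 signal the 75th percentile of its array (controls left out) was subtracted. A probe was tested if the file called it well above background on all 3 arrays of either group. With limma 3.58.1 (R 4.3.3, and the package data.table, version 1.17.8), a linear model of all 15 arrays took 1 mean for each of the 5 groups, with Benjamini-Hochberg adjustment over the 30491 probes tested. The probe with the highest mean on the 15 arrays stands for its gene, and other probes are described for only some genes. Probes of the same gene can differ widely in the size of the change, as given for Hgf, Bmf and Csrnp3. Gene names were taken from RefSeq (GRCm38.p6) by accession for 22951 probes, by a further accession for 124, by symbol for 6582 and by synonym for 3077. The file's own name was retained for 8440.

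The genes named were the 15 largest rises and 15 largest falls (called, arrays separate, with a symbol), up to 4 rises and 4 falls for each gene list, 18 fixed genes, 6 genes with probes in opposite directions and 5 and 5 genes detected in 1 group only. Other members are named to complete a family and were chosen after their values were seen. A few genes that fall under this rule are not reported here. The lists and members were chosen with earlier results of these data known. The pipeline was tested on simulated data. Alternatives were other scalings, background corrections, filters, variances, array weights, blocks and leaving out each array. Precision is limited by 3 arrays per group: the median SD of a gene was 0.18 in vehicle and 0.16 with E2, and the median 95% half-width of a change was 0.42.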

Additional observations from a re-analysis of the deposited data

Results flagged for a closer look

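For 14 of the 18 genes followed individually, the level 24 h after E2 differed from that at 2 h in limma's test of the difference (Benjamini-Hochberg adjusted p), against 52.4% of all 20066 genes. The count was 17 with array weights and 16 with scan day as a block or on scan day 1 alone. In the E2 24 h group, 3 arrays from ovariectomized CD-1 mice given the same dose, many of these 18 genes were lower than at 2 h. The change from 2 h to 24 h was -5.82 for Fos, -4.27 for Egr1, -6.49 for Gdf15 and -4.64 for Inhbb. It was -3.61 for Cdkn1a, -3.31 for Greb1, -4.02 for Wnt4 and -3.56 for Vegfa. Smaller differences in the same direction were -1.29 for Pgr, -1.68 for Klf4 and -0.51 for Esr1, which itself had not been called at 2 h. Of the genes that had fallen, Hgf, the hepatocyte growth factor, was higher at 24 h by 3.16, Bmf by 3.53 and Fzd1 by 1.49. Myc, Igf1, Ltf and C3 were not called, at -0.37, 0.003, 2.02 and 1.02. The E2 2 h arrays enter both this difference and the comparison with vehicle, so the opposite signs are not independent of each other.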

How the results depend on the processing

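With array weights, limma called 19763 probes (7899 higher, 11864 lower), 12992 genes and 382 genes with opposite probes, and the cause was not tested. Normexp background left 2809 probes at 2-fold or more. This setting adds an offset of 50 to each signal, which by itself shrinks the changes of dim probes. The part of the offset in that count was not tested. At an adjusted p under 0.01, 7693 probes (4203 lower), 5179 genes and 27 genes with opposite probes remained past the threshold, as a stricter limit must give. With slide as a random block (estimated correlation 0.152) 54 genes had opposite probes, and the cause was not tested. Leaving out each array in turn, which leaves fewer samples, gave 8829 to 11110 probes, 3875 to 4800 higher, 4954 to 6310 lower, 4244 to 5272 at 2-fold or more, 5942 to 7440 genes and 42 to 72 genes with opposite probes. Replicate numbers did not pair the samples: the deviations of same-numbered arrays correlated at -0.036, -0.074 and -0.008. With the replicate block 11100 probes (4824 higher, 6276 lower), 7438 genes and 75 genes with opposite probes were called. For these counts, the total over the gene lists and the 18 genes compared between 2 h and 24 h, the other 145 combinations with a setting moved by less than 1.5 times. Among the single lists' counts of rises and falls, 215 moved by more and 1759 did not. Of 286 named genes called, 236 kept their call under every setting in which they were tested, and 246 whichever array was left out. A gene not tested under a setting was not counted as lost there. For example, Trim15 was not tested where all 6 arrays had to be well above background. The medians of the Activin, amino acid, chemokine, G1, HGF and FGF, IGF, Kruppel-like, smooth muscle, retinoid and Wnt lists changed sign with the scaling, so no direction is given for them.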

Other observations

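Genes that rose by 4-fold or more followed each other in the order of tested genes along the chromosome in several places. Genes not tested were skipped, so neighbours here may have other genes between them. Of 332 such genes with a place in the RefSeq table, 61 stood next to another, in 26 runs, compared with 10 of 189 genes that fell by 4-fold or more, in 5 runs. Genes without a symbol had no place, which were 62 of the 394 rises and 257 of the 446 falls. Fewer falls could therefore form runs, and the 2 counts of runs are not directly comparable. The longest run held 9 kallikrein genes on chromosome 7, from Klk1b11 to Klk1, whose probes may cross-hybridise. Ramp3, Adcy1 and Igfbp1 made a run of 3 on chromosome 11, which encode a receptor partner, an adenylate cyclase and a growth factor binding protein. Fos and the repressor Jdp2 were neighbours on chromosome 12, as were Cebpb and Tmem189 on chromosome 2. Cxcl10 and Cxcl11 on chromosome 5 and the fibrinogen genes Fgg and Fgb on chromosome 3 were neighbours that fell. No expectation for such runs was computed.

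The genes with the largest changes were short in both directions. The median span from first to last base in the RefSeq table was 16.03 kb for 323 protein-coding genes that rose by 4-fold or more and 13.3 kb for 154 that fell by 4-fold or more, against 23.9 kb for 9328 genes not called and 22.4 kb for all 15107. The quartiles overlapped widely, at 5.79 to 37.2 kb for the largest rises and 9.24 to 61.8 kb for genes not called. This is a description without a test, and the part of signal level in it was not tested.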
